A study of Arabidopsis thaliana with 72 samples.

Results

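The 8 genes described here carry the lipid transfer proteins of systemic acquired resistance and the enzymes that supply one of its lipid-derived signals. They are given by name, with earlier results of these data known: DIR1 (AT5G48485), DIR1-like (AT5G48490), AZI1 (AT4G12470), EARLI1 (AT4G12480), AT4G12490, AT4G12500, GLY1 (AT2G40690) and GLI1 (AT1G80460, also known as NHO1). They are 8 of the 27655 genes in the count table, and all 8 passed the filter on low counts, as did 21042 genes in all. RNA was sequenced from whole Arabidopsis thaliana seedlings 10 days after germination, grown in liquid medium and given N-hydroxy-pipecolic acid (NHP) at 0.5 mM or the medium alone (mock). Seedlings of sid2-2, fmo1-1 and the wild type Col-0 were sampled at 4 times, after 15 and 30 min and after 3 and 6 h, which gives 24 groups of 3 libraries and 72 libraries in all. The sid2-2 mutant lacks the isochorismate synthase ICS1, which makes most pathogen-induced salicylic acid (SA), and fmo1-1 lacks the monooxygenase FMO1, which makes NHP. A library pooled the 15 seedlings of 1 well, each plate held 1 genotype, and no pathogen was given, so p-values measure the spread between wells of 1 experiment.

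In systemic acquired resistance an infected leaf sends mobile signals through the phloem, and distant leaves become more resistant. NHP is one such signal, and azelaic acid and glycerol-3-phosphate are others. DIR1 is a small secreted lipid transfer protein needed in the sending tissue, and DIR1-like is its close relative that can partly stand in for it. AZI1 is a hybrid proline-rich protein, with a lipid transfer domain after a proline-rich stretch, that is needed for priming by azelaic acid, and EARLI1 is its nearest characterized relative. GLY1 is a glycerol-3-phosphate dehydrogenase of the plastid, and GLI1 is the glycerol kinase that makes glycerol-3-phosphate from glycerol.

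In the RefSeq annotation of TAIR10.1, AZI1 (chr4:7401087-7401951), EARLI1 (chr4:7406065-7406994), AT4G12490 (chr4:7409621-7410406) and AT4G12500 (chr4:7413990-7414955) lie in a row on the minus strand of chromosome 4, each with 1 exon. Their coding sequences were 86.5% to 92.9% identical to each other, most alike for AT4G12490 and AT4G12500. The last 90 coding bases of each gene are shown because reads from this end have to be told apart by few bases. Capitals mark bases that differ from AZI1, which are 5 in EARLI1, 8 in AT4G12490 and 8 in AT4G12500, and the stretches are chr4:7401371-7401460, chr4:7406371-7406460, chr4:7409830-7409919 and chr4:7414369-7414458 in the order of the lines, minus strand.
AZI1 coding end: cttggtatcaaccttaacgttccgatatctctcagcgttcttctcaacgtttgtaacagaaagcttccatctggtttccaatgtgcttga
EARLI1 coding end: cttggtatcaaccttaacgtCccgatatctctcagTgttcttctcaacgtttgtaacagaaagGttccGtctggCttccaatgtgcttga
AT4G12490 coding end: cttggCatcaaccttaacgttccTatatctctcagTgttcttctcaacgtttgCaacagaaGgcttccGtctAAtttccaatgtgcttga
AT4G12500 coding end: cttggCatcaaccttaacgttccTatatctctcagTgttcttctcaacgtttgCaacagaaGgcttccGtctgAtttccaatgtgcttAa
The longest run shared without a difference was 87 bases between AT4G12490 and AT4G12500 and 32 bases between AZI1 and EARLI1. No stretch of 100 bases of the AZI1, EARLI1 or AT4G12500 transcript occurred in the transcript of another gene. How reads that fit several genes were counted is not given in the sources used here, so the split between AT4G12490 and AT4G12500 is the least certain of these values.

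DIR1 (chr5:19646028-19646840) and DIR1-like (chr5:19647784-19648362) are neighbours on the minus strand of chromosome 5, each with 1 exon, and their coding sequences were 78.6% identical. GLY1 (chr2:16973992-16976534, plus strand, 9 exons) and GLI1 (chr1:30246683-30249337, minus strand, 4 exons) stand apart from the others. All 813 bases of the DIR1 exon are overlapped on the opposite strand by AT5G48480, and whether counting used strand is not given, so reads of these 2 genes cannot be told apart with certainty. Over the 72 libraries AT5G48480 stayed between 38.5 and 70.3 CPM (counts scaled to library size), while DIR1 ranged between 2.52 and 75.7 CPM. The antisense partners of EARLI1 (AT4G12485, 32 bases of overlap) and AT4G12490 (AT4G12495, 282 bases) had 0 counts in every library.

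The 250 bases before the annotated start of AZI1 and EARLI1 are shown because these 2 genes moved together in time, as described further on, while their upstream sequences share only short runs, the longest of 15 bases. They are RefSeq TAIR10.1 sequence of the minus strand, written 5′ to 3′ and ending at the base before the start. Capitals mark the W-box core TTGAC, bound by WRKY factors, or its complement GTCAA. The windows are chr4:7401952-7402201 for AZI1 and chr4:7406995-7407244 for EARLI1.
AZI1 upstream: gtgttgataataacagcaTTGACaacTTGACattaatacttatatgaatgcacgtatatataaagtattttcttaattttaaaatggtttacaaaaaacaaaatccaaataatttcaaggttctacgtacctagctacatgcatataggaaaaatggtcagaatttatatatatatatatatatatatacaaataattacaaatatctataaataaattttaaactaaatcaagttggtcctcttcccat
EARLI1 upstream: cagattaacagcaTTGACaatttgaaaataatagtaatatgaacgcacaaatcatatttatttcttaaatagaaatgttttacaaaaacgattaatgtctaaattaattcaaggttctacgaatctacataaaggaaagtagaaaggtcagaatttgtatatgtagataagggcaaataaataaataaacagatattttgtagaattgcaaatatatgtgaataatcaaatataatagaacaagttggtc
AZI1 had 2 W-box cores in this window and EARLI1 had 1. The W-box core was found in the same window of 44.9% of 27444 genes on either strand. Of the windows not shown, GLI1 had 2 W-box cores and the G-box CACGTG, which 6.49% of genes had, and GLY1 had neither.

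The 8 genes differed widely in transcript abundance. In CPM per kilobase of transcript, EARLI1 had a median of 1526 over the 72 libraries (680.1 to 3275) and AZI1 a median of 988 (525 to 1569). AT4G12490 followed with 111, GLI1 with 63.0, DIR1 with 34.6, AT4G12500 with 13.7, DIR1-like with 9.92 and GLY1 with 6.99. EARLI1 was above AZI1, and AZI1 above AT4G12490, in 72 of 72 libraries. The order was less firm lower down: AT4G12490 was above GLI1 in 66 libraries, GLI1 above DIR1 in 63, DIR1 above AT4G12500 in 54, AT4G12500 above DIR1-like in 47 and DIR1-like above GLY1 in 40. Of the summed counts of the 4 tandem genes, EARLI1 held a median of 59.9%, AZI1 35.7%, AT4G12490 4.05% and AT4G12500 0.584%.

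DIR1 varied most between groups: its highest group mean was 20.1 times its lowest, against 9.56 times for DIR1-like, 4.45 for AT4G12490, 3.89 for EARLI1, 2.78 for AT4G12500 and 2.72 for AZI1. The enzyme genes varied least between groups, with ratios of 1.56 for GLI1 and 1.495 for GLY1. Replicates were closest for GLI1, with a mean coefficient of variation within groups of 3.21%, and widest for DIR1-like and DIR1, with 19.0% and 16.8%. For AZI1 and EARLI1 this coefficient was 6.31% and 6.32%.

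**Figure D1:**
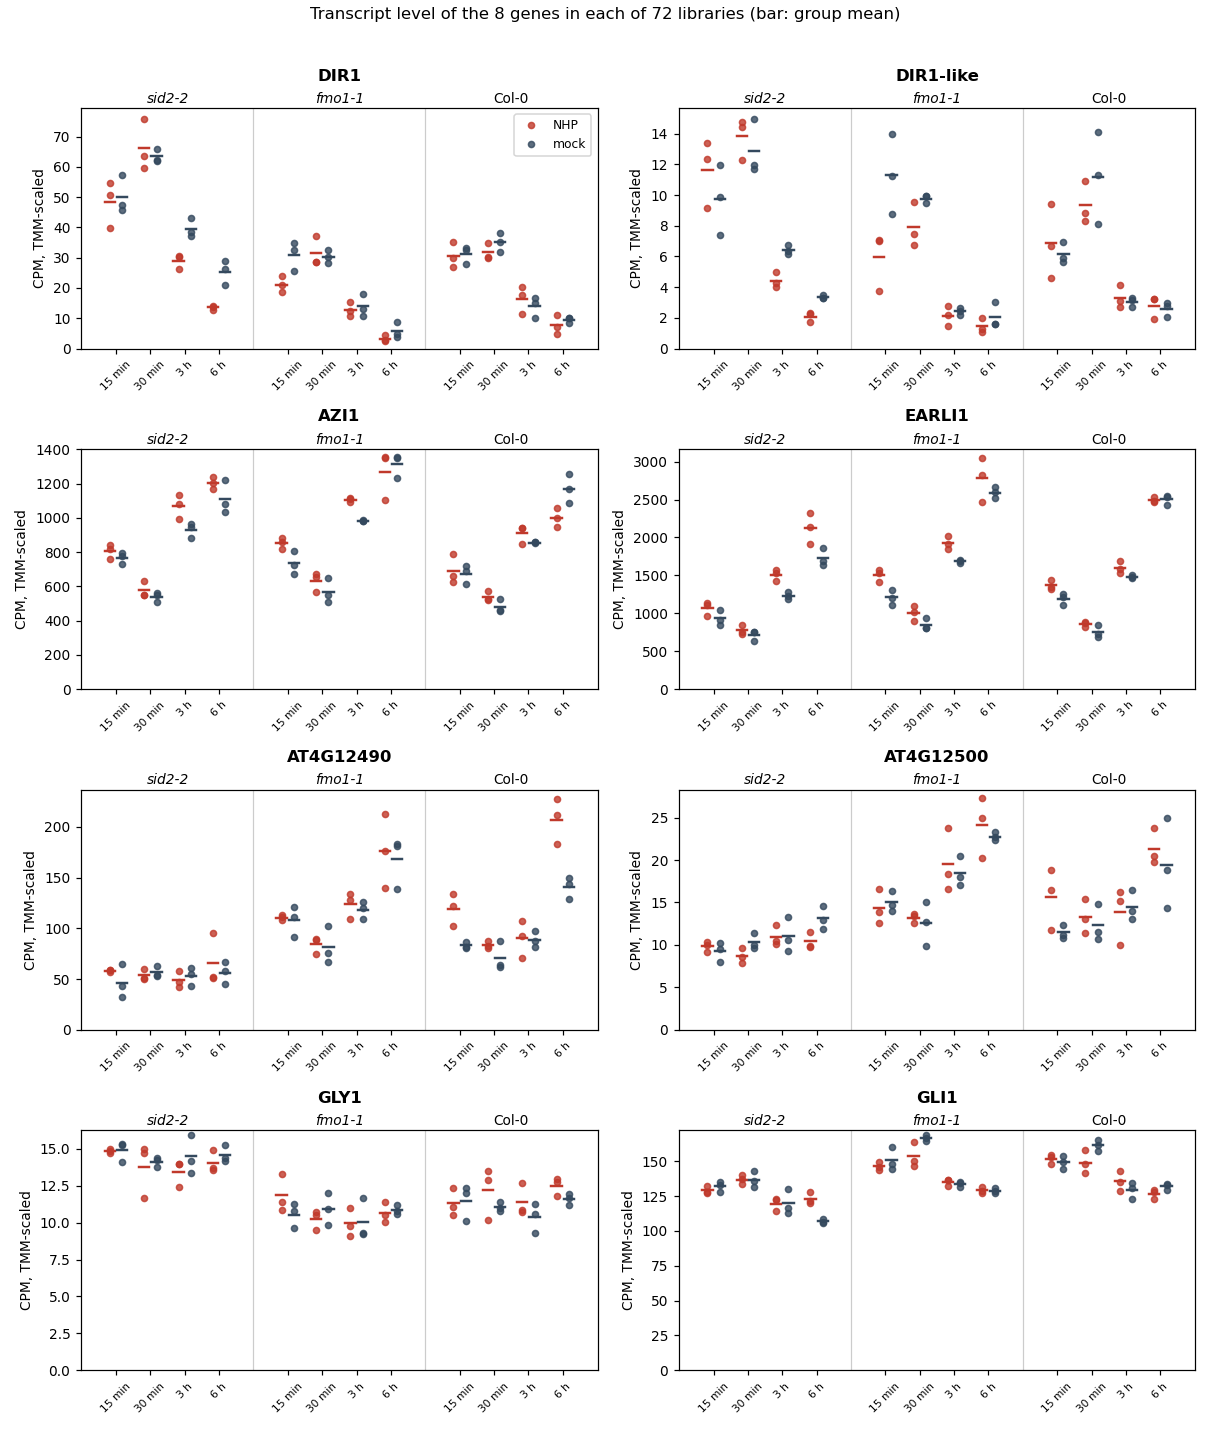
Transcript level of each gene in TMM-scaled CPM (y axes, from 0), by genotype and time, with 1 point per library, NHP in red and mock in dark blue, and a bar at each mean of 3 libraries. DIR1 and DIR1-like stood high at 15 and 30 min and low at 3 and 6 h in each genotype, AZI1 and EARLI1 the reverse, and GLY1 and GLI1 stayed nearly level.

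Depth and labels were checked before the comparisons. Counts assigned to genes ranged from 19618319 to 28382977 per library (median 23373939.5). ICS1 stood at 0.433 to 1.52 CPM in sid2-2, against 7.36 to 13.1 CPM in Col-0, and FMO1 at 0.0419 to 0.500 CPM in fmo1-1, against 1.77 to 4.57 CPM in Col-0. The NHP-responsive transcription factor gene WRKY38 was called higher with NHP in 12 of 12 comparisons, by a log2(FC) of up to 5.87 ± 0.32 (SE) in fmo1-1 at 30 min. For 1 library, sid2-2 30 min NHP replicate 3, a label gives 180 min while its title gives 30 min, and it was used as 30 min. The study's setup table gives a batch number for Col-0 and sid2-2 libraries, of a kind it does not state, and NHP and mock libraries of 1 genotype and time shared a batch only in Col-0 at 6 h. The batches of fmo1-1 were not at hand.

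The first comparison asked whether NHP changes the transcript abundance of these genes. Of 96 tests (8 genes, 3 genotypes, 4 times), 6 passed an adjusted p of 0.05 in edgeR's quasi-likelihood F-test, adjusted after Benjamini and Hochberg over all genes, 4 higher and 2 lower with NHP. That is 6.25% of the tests, near the 5.16% of tests called over all genes in the 12 comparisons (1.85% to 13% in each). At an unadjusted p below 0.05 there were 26. Of 32 tests in each genotype, 4 were called in sid2-2 and 2 in fmo1-1, against 0 in Col-0. Over the 4 times, the share of all genes called was 4.88%, 1.85%, 13% and 11% in sid2-2, 3.95%, 2.7%, 3.95% and 5.16% in fmo1-1 and 2.71%, 2.02%, 3.86% and 6.82% in Col-0. In Col-0, 8 of the 32 had an unadjusted p below 0.05, and DESeq2 called 0 when fitted on 72 libraries and 4 when fitted on the 6 libraries of each comparison. Shares of all genes are given here for edgeR only, so the DESeq2 counts cannot be set against such a share. The share of all genes whose libraries did not overlap is not given either. Statements on overlap, here and in the later comparisons, therefore only describe the values.

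Of the DIR1 pair, DIR1 fell with NHP in sid2-2 at 6 h, when 3 of 8 members and 11% of all genes were called. DIR1 had 13.8, 12.8 and 14.2 CPM in NHP libraries, against 26.3, 21.0 and 28.8 CPM in mock libraries. Every NHP library was below every mock library, with a log2(FC) of -0.90 ± 0.21 (SE) and an adjusted p of 0.00211. In the setup table these NHP libraries are batch 9 and these mock libraries batch 8. With the batch as a term the log2(FC) was 0.02 (adjusted p = 0.989). For this comparison the term rests on the Col-0 6 h NHP libraries, with replicate 1 in batch 8 and replicates 2 and 3 in batch 9. DIR1 had 11.2 CPM in replicate 1, against 4.79 and 7.01 CPM in replicates 2 and 3, so the correction rests on 1 library in batch 8. In sid2-2 at 6 h the antisense neighbour AT5G48480 had a log2(FC) of -0.10 for NHP over mock. At 3 h in sid2-2, DIR1 had 30.7, 30.2 and 26.3 CPM with NHP and 37.1, 43.03 and 38.5 CPM with mock, which did not overlap but did not pass the test (log2(FC) -0.44 ± 0.19, adjusted p = 0.123).

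Leaf genes moved in the same sid2-2 comparisons. Of 5 leaf markers, genes of the photosynthetic machinery (RBCS1A, CAB2, CAB3, LHCB2.1 and LHCA1), 3 were called lower with NHP at 3 h and 4 at 6 h, such as CAB2 by -0.56 ± 0.08 and LHCB2.1 by -0.49 ± 0.07 at 6 h. None of the 5 was at 0 in any library. Their summed level was 19025 to 20292 CPM with NHP and 19085 to 21360 CPM with mock at 6 h. At 3 h it was 26821 to 27673 CPM with NHP and 27650 to 31058 CPM with mock. RBCS1A, with a median of 17090 CPM in sid2-2 mock libraries, made up most of these sums and was called at neither time (0.09 ± 0.06 at 6 h). The part of the leaf markers in the DIR1 result was not tested, and in whole seedlings fewer cells of a type and less RNA per cell cannot be told apart.

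DIR1-like fell with NHP in fmo1-1 at 15 min, where 2 of 8 members and 3.95% of all genes were called. It had 7.04, 3.77 and 6.99 CPM with NHP, against 8.75, 11.3 and 14.0 CPM with mock. The libraries did not overlap, and the log2(FC) was -0.93 ± 0.22 with an adjusted p of 0.00529. The call was lost without mock replicate 3 or without NHP replicate 2, with an adjusted p of up to 0.107. The same mock libraries also stood above Col-0 mock, with a mean of 11.3 CPM in fmo1-1, against 6.15 CPM in Col-0, while the NHP libraries had a mean of 5.94 CPM in fmo1-1, against 6.91 CPM in Col-0. In the same comparison DIR1 had 20.8, 18.6 and 23.8 CPM with NHP and 25.7, 32.4 and 34.8 CPM with mock, and its log2(FC) of -0.55 ± 0.20 did not pass (adjusted p = 0.114). In Col-0, 95% confidence intervals of the log2(FC) ran from -0.80 to 0.68 for DIR1 and from -0.685 to 0.66 for DIR1-like over the 4 times, so that changes within these bounds could not be resolved.

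Of the tandem genes, EARLI1 accounted for 3 of the 6 calls, all higher with NHP. In sid2-2 at 3 h, where 1 of 8 members and 13% of all genes were called, EARLI1 had 1525, 1427 and 1575 CPM with NHP and 1188, 1222 and 1287 CPM with mock. In sid2-2 at 6 h it had 1912, 2326 and 2133 CPM with NHP and 1638, 1860 and 1690 CPM with mock. In fmo1-1 at 15 min it had 1411, 1572 and 1537 CPM with NHP and 1115, 1200 and 1312 CPM with mock.

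In each of these 3 comparisons every NHP library was above every mock library. The log2(FC) of EARLI1 was 0.29 ± 0.08 (adjusted p = 0.00902) in sid2-2 at 3 h, 0.30 ± 0.08 (0.00792) in sid2-2 at 6 h and 0.32 ± 0.08 (0.00893) in fmo1-1 at 15 min. With the batch as a term the sid2-2 6 h value was 0.30 with an adjusted p of 0.351. In sid2-2 at 3 h the NHP and mock libraries shared no batch, so NHP and batch cannot be told apart there. Leaving out 1 library ended each call: sid2-2 3 h mock replicate 1 (adjusted p = 0.0551), sid2-2 6 h NHP replicate 2 (0.118), and fmo1-1 15 min mock replicate 1 or NHP replicate 2 (up to 0.0873). EARLI1 was above mock in 11 of 12 comparisons, the exception being Col-0 at 6 h with a log2(FC) of -0.01. Its 12 intervals lay between -0.17 and 0.48, so a log2(FC) of 1 was outside each of them.

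AZI1 passed in none of 12 comparisons, and its intervals lay between -0.385 and 0.375. The nearest was Col-0 at 6 h, where AZI1 had 996, 1058 and 944 CPM with NHP, against 1084, 1254 and 1167 CPM with mock. These did not overlap, with a log2(FC) of -0.225 ± 0.08 and an adjusted p of 0.0767, and DESeq2 on the 6 libraries gave 0.00533.

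AT4G12490 had the highest log2(FC) of the members in Col-0. At 6 h it had 183, 227 and 211 CPM with NHP, against 149, 144 and 129 CPM with mock, and at 15 min it had 102, 134 and 122 CPM with NHP, against 81.9, 86.8 and 80.7 CPM with mock. In both comparisons the libraries did not overlap, and neither passed the test (0.55 ± 0.19, adjusted p = 0.0601, and 0.52 ± 0.19, adjusted p = 0.168). DESeq2 on the 6 libraries called both, with adjusted p of 1.98e-11 at 6 h and 1.83e-08 at 15 min. In sid2-2 and fmo1-1 its log2(FC) lay between -0.11 and 0.31 and none passed. AT4G12500 passed in no comparison, with log2(FC) from -0.33 in sid2-2 at 6 h to 0.44 in Col-0 at 15 min. Taken as 1 sum, the counts of the 4 tandem genes were called higher with NHP in sid2-2 at 3 h (0.25 ± 0.08, adjusted p = 0.0188), in sid2-2 at 6 h (0.235 ± 0.08, 0.0327) and in fmo1-1 at 15 min (0.26 ± 0.08, 0.0325), the comparisons in which EARLI1 was called.

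Of the glycerol-3-phosphate genes, GLI1 rose with NHP in sid2-2 at 6 h. It had 122, 128 and 120 CPM with NHP, against 109, 105 and 107 CPM with mock, with no overlap. The log2(FC) was 0.20 ± 0.05 with an adjusted p of 0.00135, a change of 1.15-fold. In Col-0 at 6 h GLI1 had 128, 123 and 130 CPM with NHP, against 129, 134 and 133 CPM with mock (log2(FC) -0.06 ± 0.05). This response of GLI1 was the only one of 64 that differed between a mutant and Col-0, by 0.26 ± 0.07 in sid2-2 at 6 h (adjusted p = 0.0271), where 1.06% of all genes were called. In sid2-2 at the earlier times 0 of 8 were called at each, where 0%, 0.204% and 2.17% of all genes were, and 4 of the 32 had an unadjusted p below 0.05. The GLI1 difference was lost with the batch as a term (0.29, adjusted p = 0.0986), as was the sid2-2 response itself (0.24, adjusted p = 0.227), and the difference also without any 1 of 5 of its 12 libraries (adjusted p of up to 0.109). Those libraries were Col-0 mock replicate 3, Col-0 NHP replicate 2, sid2-2 mock replicates 2 and 3 and sid2-2 NHP replicate 2.

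GLY1 passed in none of 12 comparisons, and its intervals lay between -0.30 and 0.36. For fmo1-1 against Col-0, 0 of 32 differences in response were called by edgeR and 0 by DESeq2 on 72 libraries, with 2 at an unadjusted p below 0.05, and the shares of all genes called were 0.181%, 0%, 0.00475% and 0%. A test that misses the threshold does not show that the responses were alike: for DIR1-like at 15 min the difference was -1.07 ± 0.31 (adjusted p = 0.164).

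**Figure D2:**
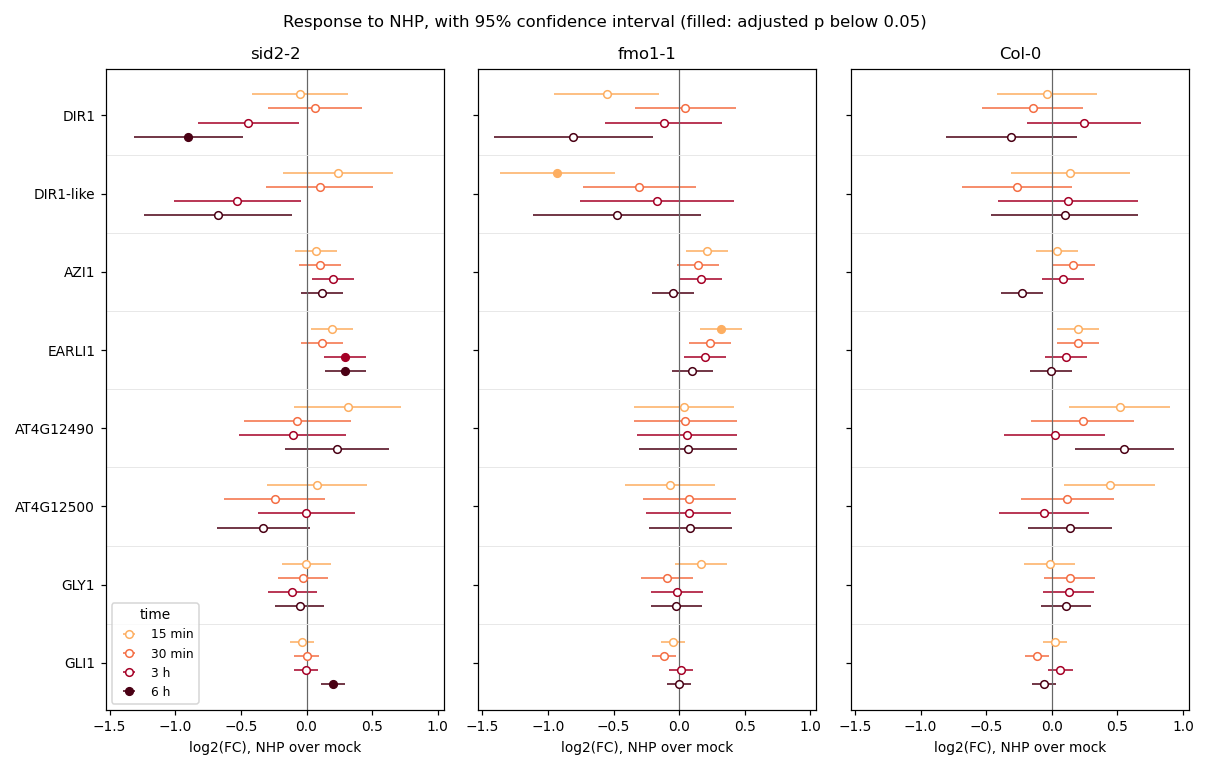
The log2(FC) of NHP over mock (x axes) for each gene and time in sid2-2, fmo1-1 and Col-0, with 95% confidence intervals as bars and filled points where the adjusted p was below 0.05. Filled points are DIR1 at -0.90, EARLI1 at 0.29 and 0.30 and GLI1 at 0.20 in sid2-2, and DIR1-like at -0.93 and EARLI1 at 0.32 in fmo1-1, while Col-0 has none.

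The next comparison set each mutant against Col-0, in mock and under NHP. Against Col-0, 21 of 32 tests in mock and 22 of 32 under NHP were called in sid2-2, where many genes differed. In mock, 31.4%, 25.6%, 36.6% and 31.3% of all genes were called at 15 and 30 min and at 3 and 6 h, beside 6, 3, 6 and 6 of the 8 members. Under NHP the shares of all genes were 37.9%, 27.6%, 20.2% and 24%, beside 8, 5, 4 and 5 members. In fmo1-1 the shares were 0.561%, 0.299%, 0.0665% and 0.0713% in mock, with 1, 0, 0 and 0 members, and 1.54%, 0.413%, 2.11% and 0.328% under NHP, with 1, 0, 1 and 1 members. DESeq2 on 72 libraries also called 1 of the 32 mock tests of fmo1-1, and 5 of the 32 under NHP, and 10 and 14 had an unadjusted p below 0.05. Both mutants were set against the same Col-0 libraries. At 30 min and 3 h, sid2-2 and Col-0 libraries of the same treatment shared no batch, so genotype and batch cannot be told apart at these times.

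DIR1 was higher in sid2-2 in 8 of 8 comparisons. In mock at 3 h it had 37.1, 43.03 and 38.5 CPM in sid2-2, against 10.0, 16.7 and 15.0 CPM in Col-0. In mock at 6 h it had 26.3, 21.0 and 28.8 CPM in sid2-2, against 8.36, 9.97 and 10.05 CPM in Col-0. At none of the 4 times, in mock or under NHP, did the sid2-2 and Col-0 libraries overlap. For how many of all genes this held is not given here. The sid2-2 mock libraries at 6 h are also those against which DIR1 fell with NHP.

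In mock the log2(FC) of DIR1 over the 4 times was 0.68 ± 0.19, 0.85 ± 0.18, 1.495 ± 0.20 and 1.42 ± 0.22, with adjusted p between 4.88e-08 and 0.00394. Under NHP it was 0.66, 1.06, 0.81 and 0.825, with adjusted p between 1.57e-05 and 0.00744, and the last was lost without Col-0 6 h NHP replicate 2 (adjusted p = 0.0955). At 15 min the mock libraries of both genotypes lay in batch 1 of the setup table. Without TMM scaling the 8 DIR1 calls stood as well. The antisense neighbour AT5G48480 had a log2(FC) of 0.23 in sid2-2 mock libraries at 6 h over Col-0 (adjusted p = 0.0319). In fmo1-1 no DIR1 test passed. The farthest was 6 h under NHP, with 2.78, 4.58 and 2.52 CPM in fmo1-1, against 11.2, 4.79 and 7.01 CPM in Col-0 (log2(FC) -1.19 ± 0.29, adjusted p = 0.0506).

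DIR1-like was higher in sid2-2 in 4 of 8 comparisons. In mock at 3 h it had 6.34, 6.78 and 6.15 CPM in sid2-2, against 2.74, 3.27 and 3.15 CPM in Col-0, with no overlap (log2(FC) 1.05 ± 0.25, adjusted p = 0.000625). The other calls were 0.665 in mock at 15 min and 0.76 and 0.565 under NHP at 15 and 30 min. The mock call was lost without Col-0 mock replicate 1 or 2 or sid2-2 mock replicate 3 (adjusted p of up to 0.14), and the NHP 15 min call without Col-0 NHP replicate 1 (0.0756). The NHP 30 min call was lost without replicate 1 or 3 of Col-0 or replicate 1 or 2 of sid2-2 (up to 0.131) and without TMM scaling (0.0842). In fmo1-1 DIR1-like was higher in mock at 15 min, with 8.75, 11.3 and 14.0 CPM, against 5.62, 5.88 and 6.96 CPM in Col-0. The fmo1-1 call had an adjusted p of 0.0466 and was lost without 5 of its 6 libraries (up to 0.391) and without the filter on low counts (0.0555).

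The tandem genes did not shift as a block in sid2-2. AT4G12490 was lower in sid2-2 in 7 of 8 comparisons. In mock at 6 h it had 44.9, 66.5 and 57.5 CPM in sid2-2, against 149, 144 and 129 CPM in Col-0, and under NHP at 6 h it had 51.9, 95.2 and 51.2 CPM in sid2-2, against 183, 227 and 211 CPM in Col-0. Libraries of the genotypes did not overlap in the 7 called comparisons.

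In mock its log2(FC) at 15 min and at 3 and 6 h was -0.83 ± 0.20, -0.75 ± 0.20 and -1.32 ± 0.20, and -1.035, -0.63, -0.88 and -1.64 over the 4 times under NHP, the largest being 0.32 times the Col-0 level at 6 h. Mock at 30 min was the exception (-0.32 ± 0.20), and the NHP 30 min call was lost without sid2-2 NHP replicate 1 or 3 (adjusted p of up to 0.0562). AT4G12500 was lower in mock at 6 h (-0.56 ± 0.17) and under NHP at 15 min (-0.66 ± 0.18), 30 min (-0.61 ± 0.19) and 6 h (-1.03 ± 0.17). Of these, the mock call was lost with the batch as a term (-0.16, adjusted p = 0.694) and without Col-0 mock replicate 2 (0.136), and the 30 min call without Col-0 or sid2-2 NHP replicate 1 (up to 0.0829).

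EARLI1 was lower in sid2-2 in 5 of 8 comparisons. In mock at 6 h it had 1638, 1860 and 1690 CPM in sid2-2, against 2535, 2549 and 2434 CPM in Col-0, with a log2(FC) of -0.535 ± 0.08 and an adjusted p of 2.56e-07. It was also lower in mock at 15 min (-0.35) and 3 h (-0.27) and under NHP at 15 min (-0.36) and 6 h (-0.23). The last was lost without Col-0 NHP replicate 2 or sid2-2 NHP replicate 1 or 3 (adjusted p of up to 0.196). The sid2-2 mock libraries at 3 h and 6 h that were below Col-0 here are the same libraries against which EARLI1 rose with NHP.

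AZI1 was called lower in sid2-2 in none of 8 comparisons. Under NHP it was higher at 15 min (0.22 ± 0.08), 3 h (0.23 ± 0.08) and 6 h (0.27 ± 0.08), as in 1169, 1241 and 1204 CPM in sid2-2 at 6 h, against 996, 1058 and 944 CPM in Col-0. It was higher in fmo1-1 under NHP at the same times, by 0.30, 0.28 and 0.345, with 1357, 1348 and 1103 CPM in fmo1-1 at 6 h. These AZI1 calls were among the weakest: those in sid2-2 were lost without TMM scaling (adjusted p of up to 0.561), and each of the 6 was lost without at least 1 of its libraries, with Col-0 NHP replicate 3 (15 min and 6 h) and replicate 2 (3 h) among them in both mutants (adjusted p of up to 0.269). TMM factors were 0.893 to 1.02 in sid2-2 and 0.988 to 1.08 in Col-0. As 1 sum, the tandem genes were lower in sid2-2 only in mock at 6 h (-0.41 ± 0.08, adjusted p = 1.73e-05).

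GLY1 was higher in sid2-2 in mock at each time, by 0.37, 0.35, 0.47 and 0.33, as in 15.2, 14.2 and 14.3 CPM in sid2-2 at 6 h, against 11.2, 11.7 and 11.97 CPM in Col-0. Under NHP it was called at 15 min (0.39). The mock calls at 30 min and 6 h were lost without TMM scaling (adjusted p of 0.0522 and 0.103), and that at 6 h also with the batch as a term (0.26, adjusted p = 0.187). GLI1 was lower in sid2-2 in 7 of 8 comparisons, by -0.175, -0.24, -0.11 and -0.30 in mock and by -0.23, -0.12 and -0.18 under NHP at the first 3 times. At 6 h under NHP the difference was -0.04 ± 0.05, and the sid2-2 mock libraries that were below Col-0 at 6 h are those against which GLI1 rose with NHP. The calls at 3 h in mock and 30 min under NHP were lost without replicate 1 or 2 of either genotype (adjusted p of up to 0.3).

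**Figure D3:**
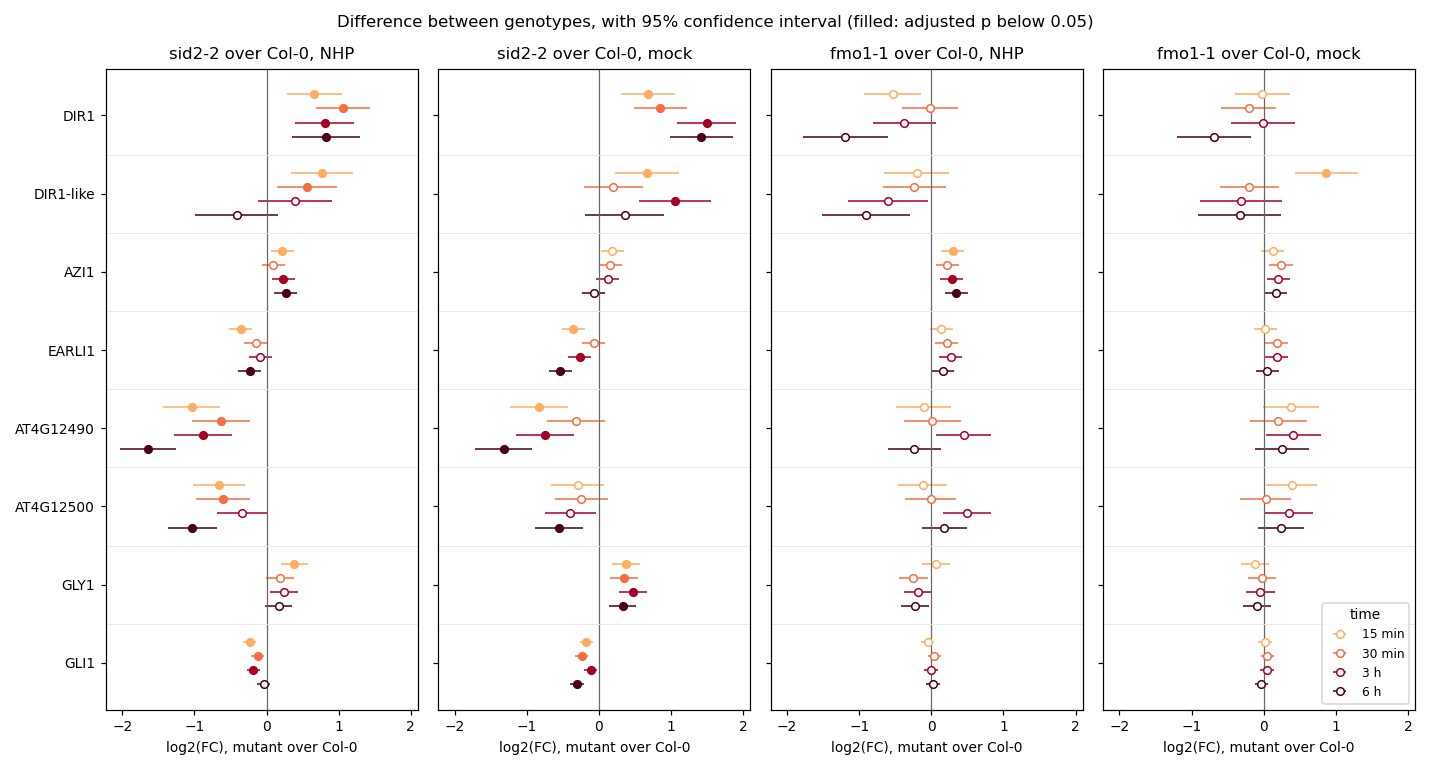
The log2(FC) of each mutant over Col-0 (x axes) for each gene and time, under NHP and in mock, with 95% confidence intervals as bars and filled points where the adjusted p was below 0.05. In sid2-2, DIR1 lies to the right at each time and AT4G12490 to the left (open only in mock at 30 min), while the fmo1-1 panels hold 4 filled points, 3 of AZI1 and 1 of DIR1-like.

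The leaf markers shifted with sid2-2 as well. The summed level of the 5 genes was 30063 to 31230 CPM in sid2-2 mock libraries at 15 min, against 20483 to 20691 CPM in Col-0, and 19085 to 21360 CPM at 6 h, against 12512 to 13683 CPM in Col-0. Between 4 and 5 of the 5 were called higher in sid2-2 in each of the 8 comparisons, and none was at 0. Of 5 root markers (PYK10, EXPA7, EXPA18, COBL9 and CASP1), 4 were called lower in sid2-2 mock libraries at each time, with sums of 3448 to 4654 CPM in sid2-2 and 3609 to 4744 CPM in Col-0. PYK10, with a median of 3945 CPM in sid2-2 mock libraries, made up most of these sums and was the marker not called in mock. Under NHP the root markers were less uniform. At 6 h PYK10 was called higher in sid2-2 (0.31 ± 0.07) and COBL9 lower (-0.54 ± 0.13), while EXPA7, EXPA18 and CASP1 were not called. At 3 h under NHP COBL9 was not called (-0.22 ± 0.13). The part of leaf and root share in the differences of the 8 genes was not tested.

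The 8 genes were then compared between times in mock. Of 72 tests between successive times, 36 were called, 17 higher and 19 lower at the later time. That is 50% of the tests, and between 9.16% and 28.3% of all genes were called in the 9 steps. For 3 h over 30 min, 5 of 8 members were called in sid2-2 (28.3% of all genes), 7 in fmo1-1 (27.8%) and 5 in Col-0 (28%). For 30 min over 15 min, 2 members were called in sid2-2 (15.3%), 3 in fmo1-1 (9.16%) and 3 in Col-0 (12.3%), and for 6 h over 3 h 5 in sid2-2 (19.2%), 3 in fmo1-1 (12.7%) and 3 in Col-0 (17.9%). In Col-0 and in sid2-2 the mock libraries of each time lay in batches of their own, so time and batch cannot be told apart.

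AZI1 and EARLI1 had the same course in each genotype, lower at 30 min and higher at 3 h and 6 h. In Col-0 mock, AZI1 had 716, 692 and 614 CPM at 15 min, 454, 529 and 464 CPM at 30 min, 858, 858 and 852 CPM at 3 h and 1084, 1254 and 1167 CPM at 6 h. EARLI1 had 1249, 1214 and 1109 CPM at 15 min, 686, 845 and 725 CPM at 30 min, 1479, 1462 and 1505 CPM at 3 h and 2535, 2549 and 2434 CPM at 6 h. The libraries of successive times did not overlap for either gene in any genotype.

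For 30 min over 15 min, AZI1 fell with a log2(FC) of -0.51 in sid2-2, -0.37 in fmo1-1 and -0.48 in Col-0, and EARLI1 with -0.38, -0.51 and -0.66 in the same order of genotypes. For 3 h over 30 min, AZI1 rose by 0.79, 0.79 and 0.83 and EARLI1 by 0.785, 0.98 and 0.98. For 6 h over 3 h, AZI1 rose by 0.25, 0.42 and 0.45 and EARLI1 by 0.49, 0.62 and 0.76. All 18 passed, and the AZI1 step to 6 h in sid2-2 was lost without sid2-2 3 h mock replicate 3 or 6 h mock replicate 2 (adjusted p of up to 0.161). AT4G12490 rose in Col-0 for 6 h over 3 h (0.66 ± 0.19) and in fmo1-1 for 3 h over 30 min (0.54 ± 0.19), and AT4G12500 rose in fmo1-1 for 3 h over 30 min (0.56 ± 0.17). These 3 calls were lost without Col-0 3 h mock replicate 2 (adjusted p = 0.0547) for the first and without fmo1-1 30 min mock replicate 1 or 3 h mock replicate 1, or for AT4G12490 replicate 3 of either time, for the others (up to 0.167).

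DIR1 and DIR1-like ran the other way. In Col-0 mock, DIR1 had 35.1, 32.0 and 38.1 CPM at 30 min, 10.0, 16.7 and 15.0 CPM at 3 h and 8.36, 9.97 and 10.05 CPM at 6 h. DIR1-like had 11.3, 8.09 and 14.1 CPM at 30 min, 2.74, 3.27 and 3.15 CPM at 3 h and 2.96, 2.03 and 2.79 CPM at 6 h. For 3 h over 30 min both genes fell in each genotype without overlap of libraries.

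The log2(FC) of that step was -0.68 ± 0.18 in sid2-2, -1.12 ± 0.21 in fmo1-1 and -1.32 ± 0.20 in Col-0 for DIR1, and -0.997 ± 0.22, -1.96 ± 0.25 and -1.85 ± 0.24 for DIR1-like. For 6 h over 3 h, DIR1 fell in sid2-2 (-0.64) and fmo1-1 (-1.245), DIR1-like fell in sid2-2 (-0.92), and the other values did not pass. The DIR1 call in sid2-2 was lost without sid2-2 3 h mock replicate 2 or 6 h mock replicate 2 (adjusted p of up to 0.0909). Whether the steps differ between genotypes was not tested. DIR1-like also rose in Col-0 for 30 min over 15 min (0.855 ± 0.22), a call lost without Col-0 30 min mock replicate 3 (adjusted p = 0.0767). Of the leaf markers, 1, 5 and 3 of 5 were called lower at 3 h than at 30 min in sid2-2, fmo1-1 and Col-0, and 5, 4 and 4 lower at 6 h than at 3 h. In Col-0 mock their sum was 21173 to 21999 CPM at 30 min, 16982 to 17621 CPM at 3 h and 12512 to 13683 CPM at 6 h, and their part in the course of the DIR1 pair was not tested.

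GLI1 was lower at 3 h than at 30 min in each genotype, by -0.19 ± 0.05 in sid2-2, -0.32 ± 0.05 in fmo1-1 and -0.32 ± 0.05 in Col-0. It was also lower at 6 h than at 3 h in sid2-2 (-0.16 ± 0.05, lost without sid2-2 3 h mock replicate 3 with an adjusted p of 0.155) and higher at 30 min than at 15 min in fmo1-1 (0.14 ± 0.05, lost without 5 of the 6 libraries, all but fmo1-1 15 min mock replicate 3). GLY1 passed in none of 9 steps, with log2(FC) between -0.12 and 0.155.

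By their levels over all libraries the lipid transfer genes ran in pairs, and less clearly so within groups. Over 72 libraries, which share genotype, time and treatment groups, Pearson's r of log2(CPM) was 0.92 for AZI1 with EARLI1, 0.90 for AT4G12490 with AT4G12500 and 0.88 for DIR1 with DIR1-like. Taken as deviations from the group means, r was 0.76, 0.69 and 0.39. Within groups the tandem genes were also correlated across these pairs. There r was 0.62 for EARLI1 with AT4G12500, and 0.39 and 0.45 for AZI1 with AT4G12490 and AT4G12500. EARLI1 with GLI1 had 0.41 within groups, above the DIR1 pair. EARLI1 ran against DIR1-like (-0.90) and DIR1 (-0.87) over all libraries, but hardly within groups (-0.19 and 0.08). EARLI1 with AT4G12490 had about the same r over all libraries (0.66) as within groups (0.67). GLY1 had its highest r over all libraries, 0.40, with DIR1, though this pair had -0.22 within groups. Negative r of GLY1 over all libraries were larger in size, -0.58 with AT4G12490 and with AT4G12500 and -0.505 with GLI1.

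**Figure D4:**
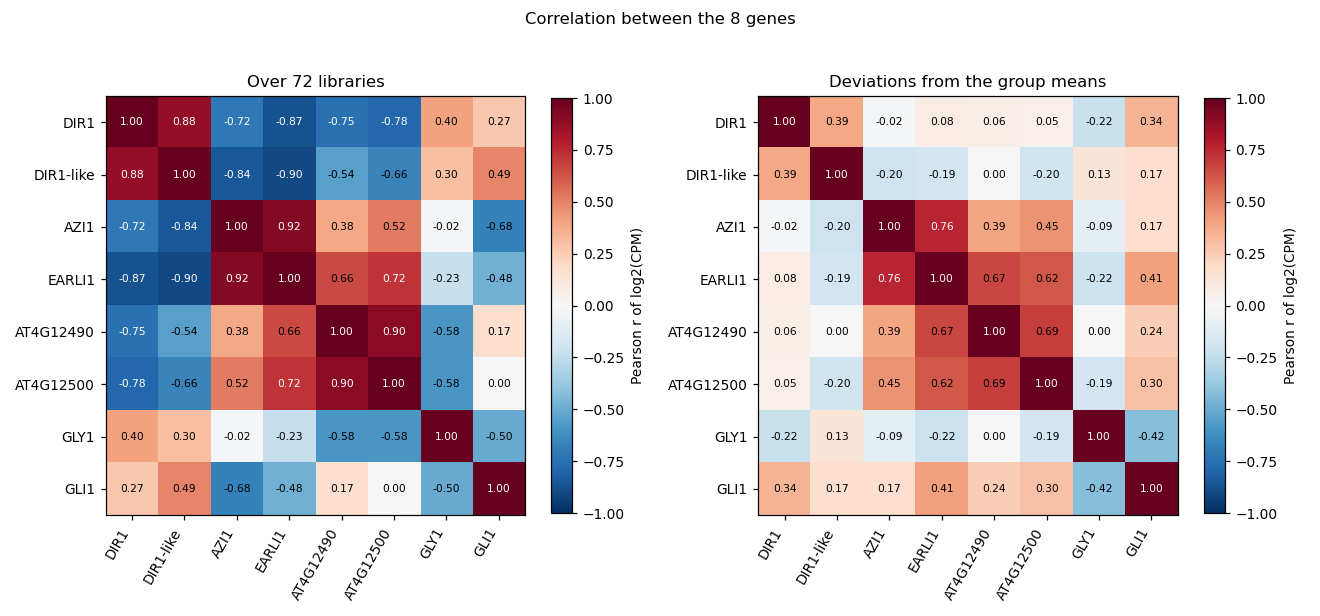
Pearson's r of log2(CPM) between each 2 of the 8 genes, over 72 libraries (left) and for deviations from the mean of each group of 3 (right), on a colour scale of -1 to 1. The pairs AZI1 with EARLI1, AT4G12490 with AT4G12500 and DIR1 with DIR1-like are dark red at left with 0.92, 0.90 and 0.88, and the blue block of -0.90 to -0.54 between the DIR1 pair and the tandem genes at left is nearly white at right.

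Among all genes tested, those most like each member over 72 libraries were taken as the 3 with the highest r. For DIR1 they were PMDH2, a peroxisomal malate dehydrogenase (r = 0.96), AT3G12345 (0.96) and GGT1, a peroxisomal aminotransferase (0.95), and for DIR1-like AT5G16030, CYCP2;1, a cyclin, and LHCB2.3, a chlorophyll-binding protein (0.95 each). For AZI1 they were PDC2, a pyruvate decarboxylase (0.95), AT1G53035 (0.94) and CHL, a lipocalin (0.93), and for EARLI1 AT1G27020 (0.97), AT3G16565 (0.96) and SNRK2.2, a protein kinase (0.95). AT2G28660 came up for both AT4G12490 (0.90, before CSLE1 with 0.88 and SULTR4;1 with 0.88) and AT4G12500 (0.84, after CuAO1 with 0.86 and CAT3 with 0.85). GLI1 was most like ZAT, a zinc transporter (0.91), the photoreceptor gene PHYA (0.90) and AT1G15740 (0.90), and GLY1 most like AT4G37510 (0.88), AT5G24690 (0.87) and AT4G36390 (0.85).

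Related genes were counted beside the 8 for the response to NHP. The share of all genes called over the 4 times was 4.88%, 1.85%, 13% and 11% in sid2-2. It was 3.95%, 2.7%, 3.95% and 5.16% in fmo1-1 and 2.71%, 2.02%, 3.86% and 6.82% in Col-0. Of 15 other hybrid proline-rich genes, 14 were tested. In sid2-2, 2 and 1 of them were called higher at 15 and 30 min, 2 were called lower at 3 h, and 2 were called lower at 6 h, among them AT5G46900 (-1.15 ± 0.32). In fmo1-1, 1 was called higher at 15 min and 1 lower at 3 h. In Col-0 the calls were all lower with NHP, 2, 1, 0 and 4 over the 4 times, among them AT5G46890 (-1.04 ± 0.28 at 6 h) and AT4G22460 (-0.68 ± 0.19 at 30 min). The median log2(FC) of the 14 in Col-0 at 6 h was -0.29, against -0.005 over all genes. Of the root markers, 3 or 4 of 5 were called lower with NHP in every comparison, such as EXPA7 by -1.49 ± 0.12 in Col-0 at 6 h. None of them was at 0, their sums in Col-0 at 6 h were 3421 to 4113 CPM with NHP and 4157 to 4443 CPM with mock, and their part in these values was not tested. PYK10, called in none of these comparisons, made up most of the sums.

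Of 14 nonspecific lipid transfer protein genes, 11 were tested. In sid2-2, 2 were called higher at 15 min, 5 lower at 3 h and 4 lower at 6 h, and edgeR called none in fmo1-1 or Col-0, with 3 in each at an unadjusted p below 0.05. At those 3 times 4.88%, 13% and 11% of all genes were called in sid2-2, more than in fmo1-1 or Col-0 as given above. LTP5 (-0.47 ± 0.09), LTPG2 (-0.39 ± 0.08) and LTPG1 (-0.34 ± 0.06) fell at 3 h in sid2-2, where leaf markers were lower as given above. Of 16 genes of glycerol-3-phosphate, azelaic acid and galactolipid pathways, all 16 were tested, beside the same shares of all genes. Over the 4 times, 0, 0, 4 and 3 were called higher and 0, 0, 2 and 3 lower in sid2-2, and 1, 1, 1 and 2 higher and 1, 0, 0 and 0 lower in fmo1-1, against 0, 0, 1 and 1 higher and 0 lower in Col-0. The largest rises were those of LLP1, a lectin gene needed for systemic resistance (2.18 ± 0.35 in fmo1-1 at 6 h), AED1, an apoplastic aspartyl protease (1.40 ± 0.37 in sid2-2 at 6 h), and PDLP5, a plasmodesmata protein (0.625 ± 0.13 in sid2-2 at 6 h).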

How the data were processed

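RNA-seq was made from poly(A) RNA of whole seedlings. The counts were made by the authors and used as deposited, as whole numbers of reads per gene and library without normalization. By the study's methods, reads were trimmed and mapped to TAIR10 in CLC Genomics Workbench. The handling of strand and of reads that fit several places is not given in the sources used here. Of 27655 gene identifiers, 27445 matched the RefSeq table of TAIR10.1. Chi-square per degree of freedom between replicates was 2.61 to 15.01 (median 4.399), so replicates differed by more than counting error.

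Here the 72 libraries in 24 groups were fitted in 1 model with edgeR 4.0.16 in R 4.3.3 (filterByExpr with a minimum count of 10 and total of 15, TMM scaling, robust quasi-likelihood, prior count 2, 48 residual degrees of freedom, biological coefficient of variation 0.0631). CPM are counts divided by the TMM-scaled library size. For each of 45 comparisons, p-values of edgeR's quasi-likelihood F-test were adjusted after Benjamini and Hochberg over 21042 genes, with calls at an adjusted p below 0.05. Errors of log2(FC) are standard errors. The study itself compared NHP with mock by DESeq2 for each genotype and time, and DESeq2 1.42.0 was run here as an alternative on 72 libraries and on the 6 of each comparison. Other alternatives were RLE size factors, library totals without TMM (chosen after seeing the data), no filter, a replicate block, the 48 libraries of Col-0 and sid2-2, the batch as a term and leaving out each library. The fitting code was tested on simulated data. All 8 members are named, with up to 3 called genes of each related list by size of change. Members and lists were chosen with earlier results of these data known, and are no independent support for any pattern. Sequences are those of RefSeq. Upstream sequences of some members are not reported here.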

Additional observations from a re-analysis of the deposited data

Results flagged for a closer look

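The response of GLI1, the glycerol kinase gene, to NHP at 6 h differed between sid2-2 and Col-0 by 0.261 ± 0.065 (SE) on the log2 scale (adjusted p = 0.0271 edgeR's quasi-likelihood F-test, Benjamini-Hochberg adjustment). GLI1 had 122, 128 and 120 CPM with NHP and 109, 105 and 107 CPM with mock in sid2-2, against 128, 123 and 130 CPM with NHP and 129, 134 and 133 CPM with mock in Col-0. The 3 NHP libraries of sid2-2 were above its 3 mock libraries, while those of Col-0 overlapped. As given above, the call was lost with the batch as a term and without any 1 of several libraries, and 1.06% of all genes were called in this comparison.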

How the results depend on the processing

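Of 6 member calls in the response to NHP, the count was 6 with RLE size factors, 9 with library totals without TMM and 6 with no filter. It was 7 with DESeq2 on 72 libraries and 14 with DESeq2 on the 6 libraries of each comparison. The last fit took the spread from those 6 libraries alone, and the reason for its higher count was not tested. Replicate numbers were not used as pairs, since same-numbered libraries did not deviate together (36 pairs, correlations of -0.079 to 0.105, 16 of 36 highest with their own number). With a replicate block the count was 8. The share of all genes called in these other runs is not given here, so their counts cannot be set against it. In the comparisons that can hold a batch term, the calls were 0 of 16 tests against 3 without it for the response and 0 against 1 for its difference between genotypes, and DIR1 in sid2-2 at 6 h reversed to 0.021 (adjusted p = 0.989). For this response the batch term rests on 1 Col-0 6 h NHP library in batch 8 set against 2 in batch 9, and the cause was not tested. Between genotypes the batch term gave 11 calls against 12 in mock and 12 against 13 under NHP. Without 1 library at a time, the counts ranged from 4 to 7 for the response, 0 to 1 for its difference, 20 to 23 and 21 to 26 for genotypes in mock and under NHP, 33 to 37 for time steps and 13 to 15 for the tandem sum (14 with all). Calls that stood in every alternative run and without each library were 0 of 6, 0 of 1, 16 of 22, 12 of 25 and 28 of 36 in the same order of comparisons. Depth limits DIR1-like most, with 27 to 338 counts per library.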
